A study of Mus musculus with 10 samples.

Results

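S1BF, the barrel field of the somatosensory cortex, which receives whisker input, was compared between cKO and Loxp mice with each cKO library set against the Loxp library of the same replicate number. The members are 8 of the 10 RNA sequencing libraries of the study, 4 cKO and 4 Loxp, numbered 1 to 4 in each group by their labels, and every gene that passed a low-count filter. All mice were C57BL/6 at postnatal day 17. Loxp mice carried the floxed Rxra allele Rxra tm1Krc and no Cre. cKO mice carried the same floxed allele together with Nex-cre, which is Cre inserted at the Neurod6 locus and acts in excitatory neurons of the cortex. The groups therefore differ in Nex-cre as well as in the deletion of Rxra, and these cannot be told apart in this comparison; interneurons, glia and vessels of the cKO cortex largely keep the floxed gene. The remaining 2 libraries are from Hetero mice (Nex-cre with 1 deleted copy of Rxra) and entered no value below except where stated. The labels do not state whether libraries stem from separate animals, so the p-values reflect only how these libraries vary, and they do not say that a number marks a shared litter, day or batch.

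Rxra encodes retinoid X receptor alpha, a nuclear receptor that binds DNA mostly as the partner of retinoic acid, thyroid hormone, liver X and peroxisome proliferator-activated receptors. In cortical neurons, sensory input opens calcium channels and activates kinases that act on CREB and on serum response factor bound at promoters. Within minutes these switch on immediate early genes such as Fos, Arc and the Egr family, whose products reshape synapses, and feedback genes such as the dual-specificity phosphatases, which switch the kinases off.

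The 8 libraries held 20485199 to 26086337 counts each, with 2.80% to 3.68% of them on mitochondrial genes, and 17398 of the 52636 genes in the table were tested. In FPKM, which is scaled for gene length, the cortical markers were high, with a median of 448 for Slc17a7 (the vesicular glutamate transporter of cortical neurons) and 16.7 for Cux2 over the 8 libraries. Markers of the striatum, which lies below the cortex, were present at a low level, with a median FPKM of 3.99 for Drd1 and 3.98 for Drd2. The summed CPM (counts scaled to library size) of the 10 listed striatal genes, of which 9 were tested, ran from 315 to 1205 in Loxp and from 299 to 1121 in cKO. This sum was lowest in library 2 of both groups and highest in library 1 of both groups. Xist, expressed from the inactive X of females, was at 371, 610, 0.233 and 523 CPM in Loxp 1 to 4 and at 520, 3.23, 523 and 0.210 in cKO 1 to 4. The libraries of numbers 2, 3 and 4 thus paired one with Xist and one without, and only those of number 1 were alike. Blocking by number does not remove that difference, and its part in the results was tested only by a fit with Xist as a covariate, given beside Arc.

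Rxra (ENSMUSG00000015846, GRCm38, chromosome 2, 27676440 to 27762957) showed no loss of whole-gene counts in cKO. It was at 24.3, 21.6, 28.0 and 31.9 CPM in Loxp 1 to 4 and at 29.1, 32.2, 29.2 and 32.1 CPM in cKO 1 to 4. The cKO library was the higher one under each number, by 0.26, 0.58, 0.06 and 0.01 on the log2 scale, and the groups overlapped. The blocked log2 fold change was 0.22 (SE 0.105, edgeR adjusted p = 0.999), and it was 0.11 without the libraries of number 2. Reads from transcripts that lack the floxed part, and from cells without Cre, count toward the gene, so these values do not check the deletion. The paralogs Rxrb and Rxrg had log2 fold changes of 0.04 (SE 0.0802) and -0.06 (SE 0.253), both with an edgeR adjusted p of 0.999. Rxrg ranged from 0.50 to 9.65 FPKM over the 8 libraries, and its difference was 1.5 under number 2 against -0.66, -0.10 and -0.25 under numbers 1, 3 and 4.

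Neurod6 (ENSMUSG00000037984, chromosome 6, 55677822 to 55681263), the neuronal transcription factor whose locus carries Cre in Nex-cre mice, was lower in cKO under each number. It was at 66.0, 55.7, 61.2 and 35.1 CPM in Loxp 1 to 4 and at 32.9, 22.8, 37.9 and 24.01 CPM in cKO 1 to 4. Loxp 4 lay within the range of the cKO libraries and was the only point of overlap. The mean was 29.4 ± 7.25 CPM in cKO and 54.5 ± 13.6 in Loxp (SD, n = 4 each), which is 0.54 of the Loxp level. The number-matched differences were -1.0, -1.28, -0.69 and -0.54 on the log2 scale. The blocked log2 fold change of -0.88 (SE 0.117) did not pass (edgeR adjusted p = 0.148), and an exact two-sided permutation test of 4 against 4 libraries gave p = 0.0571, where 0.0286 was the smallest p possible. Neurod6 passed with number 2 left out (-0.75), with DESeq2 and the block (-0.88) and with no low-count filter (-0.88). Its adjusted p ran from 7.49e-16 to 0.9999 over the alternatives. The low end is from the edgeR fit with no low-count filter, whose SE values were too small for some genes (given at the end).

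Arc (ENSMUSG00000022602, chromosome 15, 74669083 to 74672570), an immediate early gene whose protein acts at synapses in the removal of AMPA receptors, fell in cKO and was the only gene past the threshold. Across all genes tested, the blocked fit called 1 gene, 0.00575% of the genes tested, with 0 higher. Arc was at 445, 356, 513 and 837 CPM in Loxp 1 to 4. It was at 284, 186, 296 and 383 CPM in cKO 1 to 4. In both groups library 2 was the lowest, then 1, 3 and 4, so that the highest cKO library lay above the lowest Loxp library although each cKO library lay below its own number. The mean was 288 ± 80.6 CPM in cKO and 538 ± 209.9 in Loxp (SD, n = 4 each). The differences by number were -0.65, -0.93, -0.79 and -1.13, and the blocked log2 fold change was -0.87 (SE 0.0909, edgeR adjusted p = 0.0315).

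The call of Arc was lost without the block and with number 1, 3 or 4 left out. Without the block its log2 fold change was -0.90, the SE was 0.252 and the edgeR adjusted p was 0.9999; that fit called 0 genes, with 345 (1.98%) at an unadjusted p under 0.05, against 575 (3.3%) with the block. With number 1, 3 or 4 left out the log2 fold changes of Arc were -0.95, -0.90 and -0.79, with edgeR adjusted p of 0.103, 0.143 and 0.220. Those fits hold fewer libraries, so a lost call is not shown to rest on the number left out. Over the 13 alternatives the log2 fold change ran from -0.95 to -0.79 and the adjusted p from 2.39e-20 to 0.9999. The low end of the adjusted p is again from the edgeR fit with no low-count filter. With Xist as a covariate beside the block Arc stayed past the threshold at -0.85 (edgeR adjusted p = 0.0130). An exact permutation test gave p = 0.0571 for 4 against 4 libraries, and an exact sign-flip test of the 4 differences gave p = 0.125, which is the smallest p that 4 pairs allow.

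**Figure D1:**
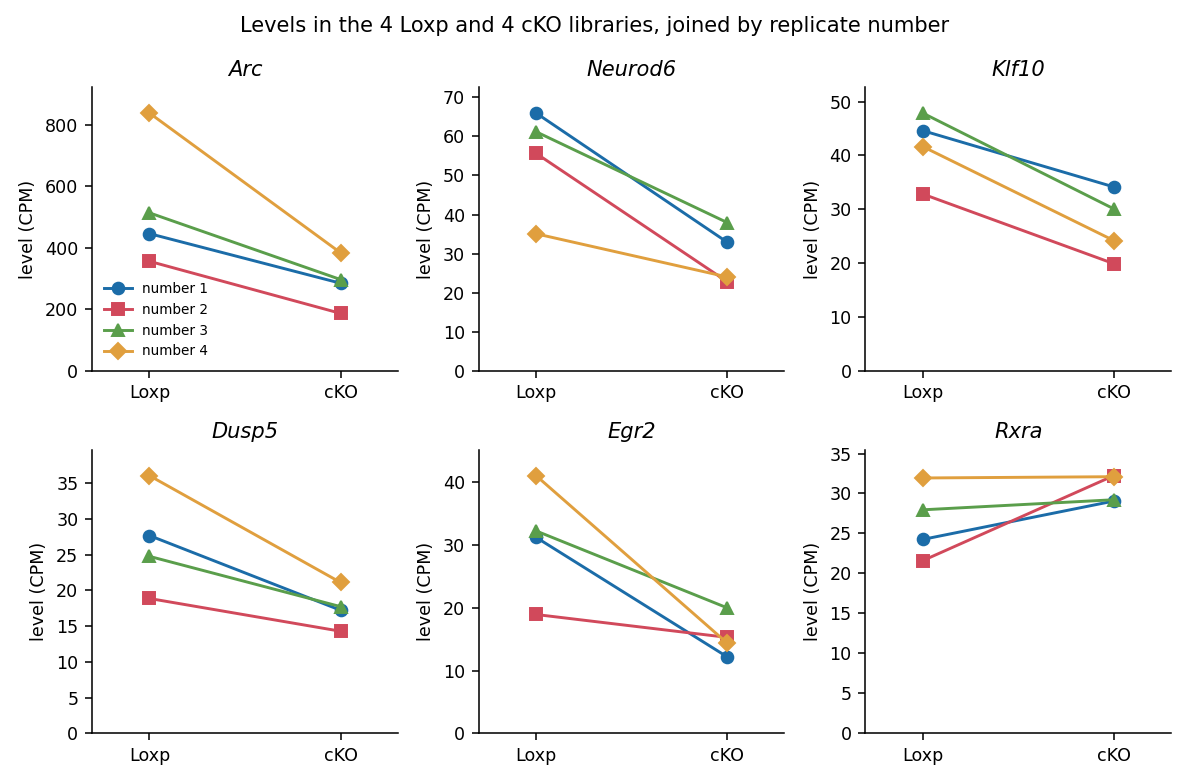
Levels of 6 genes in CPM (vertical axis, from 0) in the Loxp and cKO libraries (horizontal axis), with each line joining the libraries of the same replicate number. For Arc, Neurod6, Klf10, Dusp5 and Egr2 all 4 lines run down from Loxp to cKO, and for Rxra all 4 run level or up, by 0.01 to 0.58 on the log2 scale.

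Most of the other genes that were lower under each number with the smallest p belong to the same activity-regulated programme. The 12 lower genes named by rule, which takes genes with the same sign in all 4 differences and a mean log2 CPM over 2, were Arc, Neurod6, Klf10, Dusp5, Egr2, Arl4d, Ier2, Fos, Egr1, Egr3, Dusp6 and Nr4a1, and each of them except Neurod6 is on one of the 3 activity lists. These lists were drawn up with earlier results of these libraries known, so their make-up is not independent of these values. Apart from Arc none passed, and edgeR adjusted p-values of the other 11 ran from 0.148 to 0.916.

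Klf10, a zinc finger repressor first found as a TGF-beta response gene, was at 44.6, 32.8, 47.9 and 41.6 CPM in Loxp 1 to 4 and at 34.1, 19.9, 30.1 and 24.2 in cKO 1 to 4. Only cKO 1 lay above the lowest Loxp library, and the log2 fold change was -0.64 (SE 0.0904, edgeR adjusted p = 0.171). Dusp5, a nuclear phosphatase that inactivates ERK, was at 27.7, 18.9, 24.8 and 36.1 CPM in Loxp and at 17.2, 14.3, 17.7 and 21.1 in cKO. Again a single cKO library, number 4, lay above a Loxp library, and the log2 fold change was -0.59 (SE 0.0963, edgeR adjusted p = 0.350). The related ERK phosphatase Dusp6, which acts in the cytoplasm, was at 114, 109, 121 and 159 CPM in Loxp and at 89.4, 77.6, 105.6 and 106.2 in cKO. Its groups did not overlap, and its log2 fold change was smaller, at -0.40 (SE 0.0825, edgeR adjusted p = 0.776).

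The Egr family, zinc finger activators induced by synaptic input, was lower under each number in 3 of its 4 members. Egr2 was at 31.2, 18.9, 32.2 and 41.0 CPM in Loxp and at 12.2, 15.3, 20.0 and 14.4 in cKO (log2 fold change -0.97, SE 0.175, edgeR adjusted p = 0.622). Its difference was least under number 2 (-0.31), where the Loxp library was the lowest of its group, and was -1.35, -0.69 and -1.51 under numbers 1, 3 and 4. Egr1 was at 594, 521, 682 and 746 CPM in Loxp and at 379, 383, 598 and 538 in cKO (log2 fold change -0.44, SE 0.0870). Egr3 was at 283, 208, 289.6 and 283 CPM in Loxp and at 181, 169, 240.4 and 159 in cKO (log2 fold change -0.51, SE 0.104). For both genes cKO 3 was the highest cKO library and lay above Loxp 2. For Egr1 cKO 3 also lay above Loxp 1, and cKO 4 lay above Loxp 2. The fourth member, Egr4, differed in sign between numbers, with -0.83, 0.70, -0.37 and -0.30.

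Fos, a subunit of the AP-1 factor, was at 61.1, 48.6, 71.3 and 87.3 CPM in Loxp and at 35.2, 43.8, 47.0 and 54.6 in cKO (log2 fold change -0.56, SE 0.105, edgeR adjusted p = 0.622). Nr4a1, an orphan nuclear receptor that can pair with RXR and is itself an immediate early gene, was at 238, 152, 251 and 435 CPM in Loxp and at 165, 144, 133 and 243 in cKO. Its log2 fold change was -0.59 (SE 0.127, edgeR adjusted p = 0.916), and under number 2 the libraries differed by only -0.08. Loxp 2 was the lowest Loxp library for Arc, Klf10, Dusp5, Dusp6, Egr1, Egr2, Egr3, Fos, Nr4a1 and Arl4d. Arl4d, a small GTPase of the ARF family, was at 49.8, 36.6, 43.5 and 47.2 CPM in Loxp and at 33.7, 29.1, 32.4 and 35.7 in cKO, without overlap. Its 4 differences lay between -0.56 and -0.33, and the log2 fold change was -0.43 (SE 0.0799, edgeR adjusted p = 0.622).

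**Figure D2:**
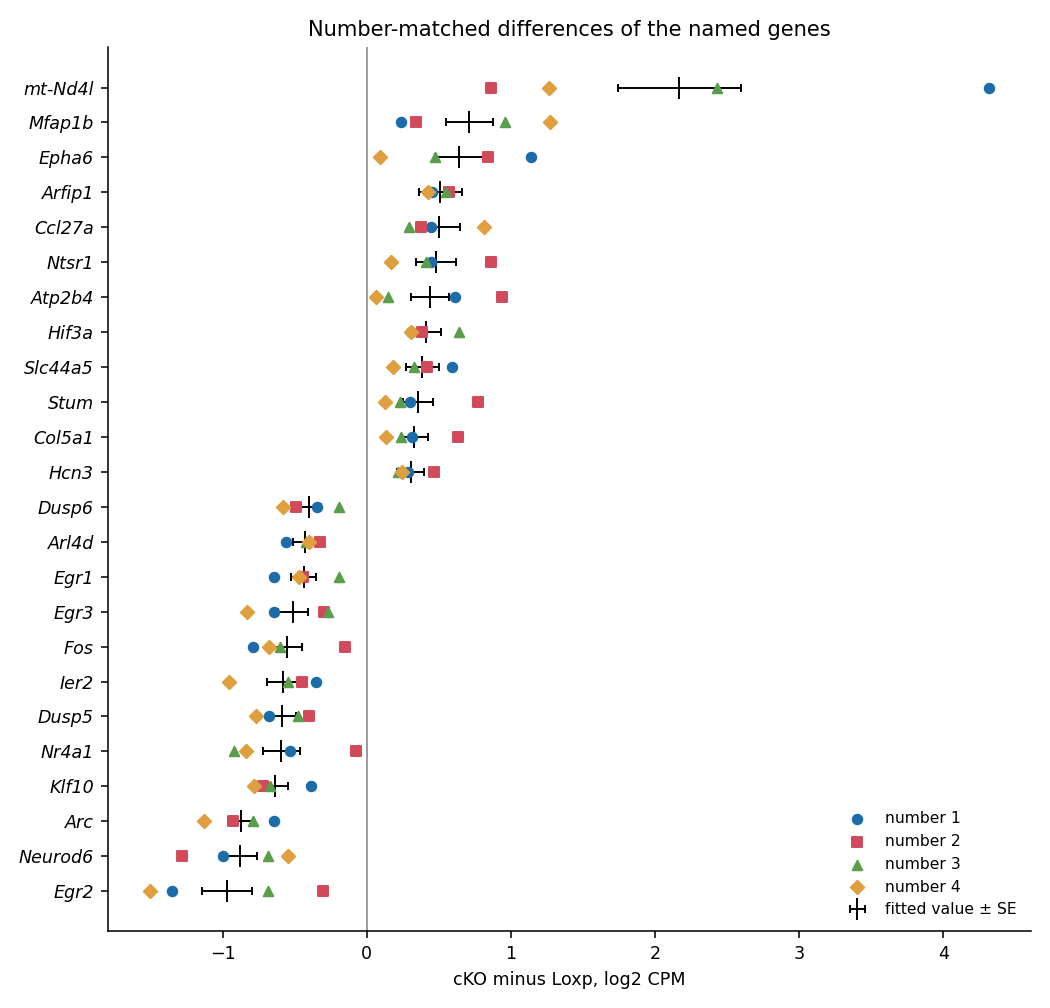
Differences of log2 CPM, cKO minus Loxp, under each replicate number (coloured symbols, horizontal axis) for the 12 lower and 12 higher genes named by rule (rows), with the blocked log2 fold change and its SE in black. Arc and Neurod6 are the lower genes with all 4 differences beyond -0.5, and mt-Nd4l is the higher gene with all 4 beyond 0.5.

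Promoters were searched for CREB and serum response factor sites, the known entry points of activity signals, because these genes were lower together. RefSeq promoter windows (GRCm38.p6, 250 bases before to 50 after the start) were matched by symbol for 7 of the 12 genes, Neurod6, Dusp5, Egr2, Arl4d, Fos, Dusp6 and Nr4a1. The 5 printed were picked because a window of theirs holds such a motif, and those of Neurod6 and Dusp6, which hold none of the motifs searched, are not printed. Capitals mark the cAMP response element (CRE) TGACGTCA, its core TGACG on either strand (which the full element contains), and the CArG box bound by serum response factor. All lie on the plus strand, at chr19:53528895-53529108 (Dusp5), chr10:67537316-67537565 (Egr2), chr11:101665291-101665540 (Arl4d), chr12:85473640-85473889 (Fos) and chr15:101266596-101266845 (Nr4a1), and run 5′ to 3′ up to the start or, for Dusp5, to the base before its first annotated exon. The stretch of Dusp5 also covers part of an exon of AC137853.2 on the opposite strand.
Dusp5: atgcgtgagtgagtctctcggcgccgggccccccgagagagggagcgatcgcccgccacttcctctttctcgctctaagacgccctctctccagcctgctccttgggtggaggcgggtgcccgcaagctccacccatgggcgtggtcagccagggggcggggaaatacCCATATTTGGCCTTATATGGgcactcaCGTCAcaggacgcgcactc
Egr2: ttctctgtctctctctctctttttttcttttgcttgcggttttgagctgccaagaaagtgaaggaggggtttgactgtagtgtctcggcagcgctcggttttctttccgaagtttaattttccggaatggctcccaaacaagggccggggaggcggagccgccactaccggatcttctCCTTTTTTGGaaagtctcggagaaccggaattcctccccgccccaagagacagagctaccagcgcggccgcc
Arl4d: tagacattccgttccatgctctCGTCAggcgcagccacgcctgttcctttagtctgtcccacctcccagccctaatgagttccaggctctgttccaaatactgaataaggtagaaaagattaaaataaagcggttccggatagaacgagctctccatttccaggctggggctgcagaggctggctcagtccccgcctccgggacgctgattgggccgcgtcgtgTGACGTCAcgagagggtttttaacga
Fos: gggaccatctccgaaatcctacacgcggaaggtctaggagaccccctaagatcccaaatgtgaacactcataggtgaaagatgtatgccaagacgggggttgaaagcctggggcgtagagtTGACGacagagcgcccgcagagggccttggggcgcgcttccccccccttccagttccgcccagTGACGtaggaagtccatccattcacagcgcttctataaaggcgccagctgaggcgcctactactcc
Nr4a1: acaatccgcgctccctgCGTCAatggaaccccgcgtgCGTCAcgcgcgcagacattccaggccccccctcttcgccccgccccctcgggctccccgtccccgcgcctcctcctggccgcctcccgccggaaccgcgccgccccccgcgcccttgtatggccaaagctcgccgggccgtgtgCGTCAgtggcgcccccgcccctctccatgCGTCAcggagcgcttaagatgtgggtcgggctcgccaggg

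Dusp5 holds a pair of adjoining CArG boxes and a CRE core within 82 bases of its start, and Arl4d holds a full CRE that begins at position -26. A gene was counted if any of its listed windows held the motif. The CRE core was found for 5 of the 7 genes, Arl4d, Dusp5, Egr2, Fos and Nr4a1, and for 33.7% of the 12021 tested genes with a promoter in the table. The CRE core of Egr2 is not in the printed stretch but elsewhere in its listed windows, which were searched over their full length. The printed stretches of Egr2 and Nr4a1 lie within the annotated genes, which begin at 67535475 and 101254269. The full CRE was found for 1 of the 7 genes and for 3.42% of all, and the CArG box for 2 of the 7, Dusp5 and Egr2, and for 1.66% of all. The AP-1 motif TGANTCA and the RXR core site AGGTCA were found for 0 of the 7 genes and for 6.25% and 15.1% of all. A match describes the letters of the window and says nothing of binding.

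Over the 3 activity lists together, 63 of the 72 genes tested had a lower fitted level in cKO and 26 were lower under each of the 4 numbers, against 6.01% (1046) of all genes tested. One was higher under each number, Nptx1, a secreted pentraxin of excitatory synapses, and 5.78% of all genes were. The median log2 fold change of the 72 genes was -0.24, and it was 0.00401 over all genes. By the edgeR test 30 of the 72 had an unadjusted p under 0.05, all lower, where 1.39% of all genes did so in that direction. After adjustment over all genes only Arc passed. Because the lists were drawn up with earlier results of these libraries known, these counts only describe the lists and test nothing.

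Immediate early transcription factors had 21 of 26 genes lower and a median of -0.35 on the log2 scale, and 11 were lower under each number: Fos, Jund, Egr1, Egr2, Egr3, Nr4a1, Ier2, Klf10, Crem, Nfil3 and Bhlhe40. Bhlhe40, a repressor that also acts in the circadian clock, averaged 85.6 CPM in cKO and 108.9 in Loxp (log2 fold change -0.37, SE 0.0821, edgeR adjusted p = 0.967). Activity-regulated effectors at synapses were lower for 19 of 22 genes, with a median of -0.18, and 9 were lower under each number: Arc, Bdnf, Nptx2, Plk2, Nrn1, Rgs4, Lingo3, Tiparp and Arl4d. Bdnf, the neurotrophin secreted by active neurons, averaged 21.4 CPM in cKO and 29.4 in Loxp (log2 fold change -0.46, SE 0.113, edgeR adjusted p = 0.999). Activity-induced feedback regulators were lower for 23 of 24 genes, with a median of -0.25, and 6 were lower under each number: Dusp5, Dusp6, Dusp14, Trib1, Ier5 and Spry2. Ier5, an immediate early response gene, was at 204, 131, 182 and 168 CPM in Loxp and at 108, 79.4, 158 and 141 in cKO (log2 fold change -0.52, SE 0.118, edgeR adjusted p = 0.967). Its cKO 3 and cKO 4 lay above Loxp 2.

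The libraries of number 2 departed from the other 3 for many of these genes. Of the 72 activity genes, 65, 41, 54 and 61 were lower in cKO under numbers 1, 2, 3 and 4, and 19 were higher under number 2 while lower under the other 3 numbers. For numbers 1, 3 and 4 the counts of genes that were higher under that number alone were 2, 7 and 4. Over all 17398 genes, 8620, 8846, 8804 and 8882 were lower under numbers 1, 2, 3 and 4. Of all genes 1118 were higher under number 2 alone, and 1434, 974 and 1010 under number 1, 3 or 4 alone. Among the 19 were Junb and Fosb (AP-1 subunits), Fosl2, Egr4, Nr4a3, Dusp1 and Sik1. Junb differed by -0.61, 0.27, -0.79 and -0.57 under numbers 1 to 4, and Fosb by -0.95, 0.70, -0.38 and -0.75. The median difference of the immediate early transcription factors was 0.00 under number 2 and -0.54, -0.28 and -0.46 under numbers 1, 3 and 4. That of the effectors was -0.14 under number 2 and -0.31, -0.09 and -0.10 under numbers 1, 3 and 4. That of the feedback regulators was -0.14 under number 2 and -0.39, -0.11 and -0.37 under the others.

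With both libraries of number 2 left out, 45 of the 72 activity genes were lower under each of the 3 numbers left, and 12.4% of all genes were. The same count was 28, 33 and 30 without numbers 1, 3 and 4, and the share of all genes was 14.3%, 11.6% and 11.8%. Without number 2 edgeR called 15 genes, of which 13 were lower, among them Arc, Nr4a1, Junb, Fosl2, Fos, Nr4a3, Neurod6, Klf10, Dusp5 and Egr2. Without number 1, 3 or 4 it called 0, with 639, 551 and 563 genes at an unadjusted p under 0.05.

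**Figure D3:**
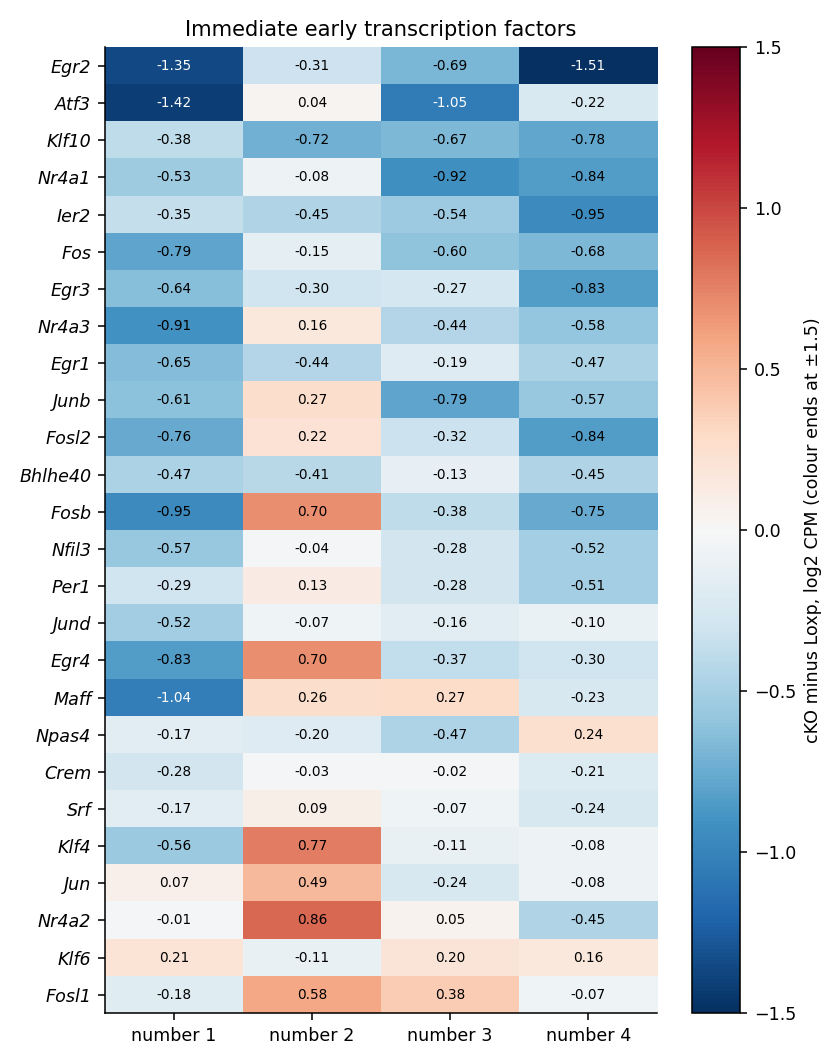
Differences of log2 CPM, cKO minus Loxp, under each replicate number (columns) for the 26 immediate early transcription factors tested (rows, ordered by the blocked log2 fold change); blue is lower in cKO and red is higher. The column of number 2 holds red cells for genes such as Fosb (0.70) and Egr4 (0.70) that are blue in the other 3 columns, while Egr1, Egr2, Egr3, Fos and Klf10 are blue in all 4.

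Markers of other cells also stood apart under number 2. The 15 oligodendrocyte markers, genes of the cells that make myelin, had a median difference of -0.72 under number 2 and of -0.03, -0.24 and -0.10 under numbers 1, 3 and 4. Their summed CPM was 6319 in cKO 2, 9016 to 10729 in the other cKO libraries and 8990 to 11543 in Loxp. All 15 had a lower fitted level in cKO and 7 were lower under each number, with 5 at an unadjusted edgeR p under 0.05 and 0 called. Of all genes 48.6% were lower, 6.01% were lower under each number and 1.39% were lower at that p. Mbp, which encodes myelin basic protein, was at 3960, 4020, 4321 and 4867 CPM in Loxp and at 3844, 3270, 3645 and 4336 in cKO (log2 fold change -0.19, SE 0.0689, edgeR adjusted p = 0.999). The 7 genes of oligodendrocyte precursors had a median difference of 0.52 under number 2 and of 0.01, -0.12 and -0.09 under the others. Meningeal and fibroblast markers (11 tested) had -1.0 under number 2 and -0.23, 0.18 and 0.30 under the others, and markers of layers 2 to 4 (10 tested) had -0.42 and 0.21, -0.13 and -0.11. In bulk tissue, fewer cells of a type and less RNA per cell cannot be told apart. The part of these markers, or of the difference in Xist between the libraries of number 2, in the activity gene values of that number was not tested.

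**Figure D4:**
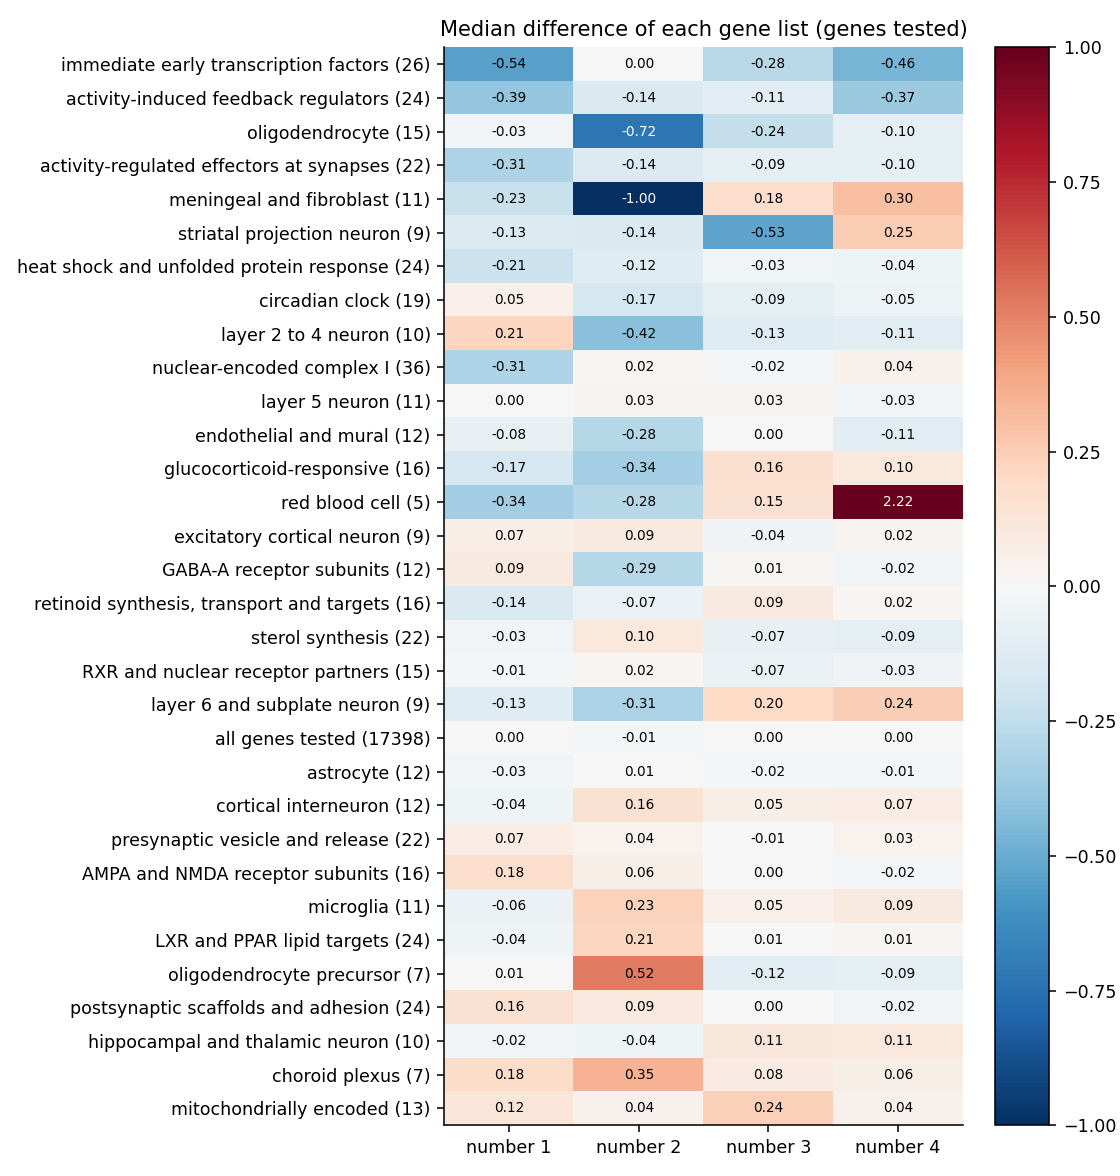
Median difference of log2 CPM, cKO minus Loxp, of each gene list (rows, with the number of genes tested) under each replicate number (columns). The 3 activity lists are blue under numbers 1, 3 and 4, and under number 2 so are the effectors and feedback regulators (-0.14 each). The oligodendrocyte (-0.72) and meningeal (-1.0) medians stand out under number 2 and that of red blood cell genes (2.22) under number 4.

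Markers of the neurons in which Nex-cre acts were split in direction. Of the 9 markers of excitatory cortical neurons, 4 were higher and 5 lower (median log2 fold change -0.02). Apart from Neurod6, none had an unadjusted p under 0.05. Slc17a7 averaged 2466 CPM in cKO and 2307 in Loxp (log2 fold change 0.10, SE 0.0693), and Neurod2, a relative of Neurod6, had 0.10 (SE 0.0713). Both were higher under each number, by 0.01 to 0.23 for Slc17a7 and by 0.05 to 0.15 for Neurod2, with an edgeR adjusted p of 0.999. The list of AMPA and NMDA receptor subunits also holds auxiliary proteins of these receptors, such as Cacng2 and Cnih2. Of its 16 genes 14 were higher, with a median of 0.06, and postsynaptic scaffolds and adhesion genes were higher for 21 of 24 with a median of 0.08. Of all genes 51.4% were higher. In each of these lists 1 gene was higher under each number, and 5.78% of all genes were. No gene of either list had an unadjusted p under 0.05, and their medians under number 4 were -0.02 and -0.02.

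Genes tied to the receptor were split in direction. The 15 nuclear receptor partners tested were split into 8 higher and 7 lower (median log2 fold change 0.000186), and 2 were higher and 2 lower under each number. The pair that was higher was Rxra and Nr1h3, and the pair that was lower was Nr4a1 and Rara. Nr1h3, the liver X receptor alpha, was at 2.76, 1.82, 1.83 and 3.25 CPM in Loxp and at 3.31, 3.01, 3.03 and 3.52 in cKO. Loxp 4 lay above cKO 2 and cKO 3, and the log2 fold change was 0.44 (SE 0.194, edgeR adjusted p = 0.999). The lipid targets of the liver X and peroxisome proliferator-activated receptors were higher for 15 of 24 genes, with a median of 0.06. Those higher under each number included Abca1 (a cholesterol exporter, 0.19, SE 0.0957), Lpcat3 and Nr1h3 itself.

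Retinoid genes were higher for 7 of 16 with a median of -0.01. Aldh1a3, which makes retinoic acid, was lower under each number at a low level. It was at 1.91, 2.01, 1.32 and 0.441 CPM in Loxp and at 1.14, 0.775, 0.970 and 0.251 in cKO (log2 fold change -0.83, SE 0.289, edgeR adjusted p = 0.999). Sterol synthesis genes were higher for 10 of 22 with a median of -0.01. Lower under each number were 4 of them, among them Hmgcs1, Cyp51 and Ebp. The log2 fold change of Cyp51, which removes a methyl group from lanosterol, was -0.18 (SE 0.0726, edgeR adjusted p = 0.999). Genes of the circadian clock had a median of -0.10 with 17 of 19 lower and 4 lower under each number, of which Bhlhe40 and Nfil3 are also on the immediate early list. The median difference of the clock genes was 0.05 under number 1 and -0.17, -0.09 and -0.05 under numbers 2, 3 and 4. Heat shock and unfolded protein response genes had a median of -0.10 with 19 of 24 lower and 7 lower under each number, and 1 of them had an unadjusted p under 0.05. Of all genes 48.6% were lower and 6.01% were lower under each number.

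No gene was called higher in the blocked fit. Of the 12 higher genes named by rule, mt-Nd4l had the largest log2 fold change, 2.17 (SE 0.426, edgeR adjusted p = 0.734). It was at 2.72, 5.73, 6.03 and 9.62 CPM in Loxp and at 55.7, 10.5, 32.8 and 23.3 in cKO. The groups did not overlap, but its 4 differences ran from 0.86 to 4.32. This mitochondrial gene for a subunit of complex I overlaps mt-Nd4, which was at 2226 CPM in Loxp and 2410 in cKO (log2 fold change 0.12), so its count is uncertain. All 13 mitochondrially encoded genes had a higher fitted level with a median of 0.18, where 51.4% of all genes did. Of these 5 were higher under each number and 3 had an unadjusted p under 0.05 (1.92% of all genes in that direction). The 36 genes of nuclear-encoded complex I were lower for 31 with a median of -0.06, where 48.6% of all genes were lower. Their median difference was -0.31 under number 1 and 0.02, -0.02 and 0.04 under numbers 2, 3 and 4. Only 3 of them were lower under each number, and 6.01% of all genes were.

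Mfap1b, a spliceosome gene, was at 14.9, 11.1, 15.05 and 9.62 CPM in Loxp and at 17.6, 14.0, 29.3 and 23.3 in cKO (log2 fold change 0.71, SE 0.163, edgeR adjusted p = 0.967). Its near-identical copy Mfap1a had -0.07 with mixed signs, so how reads were split between both is uncertain. Arfip1, which binds small GTPases at the Golgi, had the most even differences of the 12, from 0.43 to 0.57. It was at 3.86, 3.25, 3.42 and 3.41 CPM in Loxp and at 5.32, 4.86, 5.04 and 4.61 in cKO, without overlap, and its log2 fold change was 0.51 (SE 0.148, edgeR adjusted p = 0.999). Epha6, an ephrin receptor, was at 5.62, 6.69, 9.22 and 6.73 CPM in Loxp and at 12.5, 12.1, 12.8 and 7.17 in cKO (log2 fold change 0.64, SE 0.165, edgeR adjusted p = 0.999). For Epha6 the cKO library of number 4 lay within the Loxp range.

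The other 8 were Hif3a (a hypoxia-inducible factor subunit), Col5a1 (a fibrillar collagen), Ntsr1 (a neurotensin receptor that marks layer 6 neurons), Ccl27a (a chemokine), Stum, Slc44a5, Hcn3 (a pacemaker channel) and Atp2b4 (a plasma membrane calcium pump). Their log2 fold changes ran from 0.30 to 0.50, all with an edgeR adjusted p of 0.999. Under number 2 the difference of Atp2b4 was 0.94 against 0.61, 0.14 and 0.06 under numbers 1, 3 and 4, and that of Stum was 0.77 against 0.30, 0.23 and 0.13. Without number 2 the log2 fold changes of Atp2b4 and Stum were 0.27 and 0.22, and those of the other 6 moved by less than 1.5 times with any number left out.

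Across all genes tested, 2052 (11.8%) had the same sign under all 4 numbers, 1006 higher (5.78%) and 1046 lower (6.01%). Their median size of log2 fold change was 0.200, against 0.0767 for the other genes, and 455 of them had an unadjusted p under 0.05, of 575 among all genes. Few were large. All 4 differences passed 0.5 on the log2 scale for 19 higher genes (0.109%) and 11 lower genes (0.0632%), and of these only mt-Nd4l, Arc and Neurod6 had a mean log2 CPM over 2. The lower genes at a low level included Nhej1 (a DNA repair factor), Ccr1 (a chemokine receptor) and Chrna2 (a nicotinic receptor subunit), with mean levels in Loxp of 1.14, 0.733 and 1.35 CPM against 0.498, 0.272 and 0.661 CPM in cKO. These 3 were chosen after their values were seen. No overlap between the 4 cKO and the 4 Loxp libraries, which implies the same sign under each number, was found for 261 genes (1.5%), 142 higher (0.816%) and 119 lower (0.684%).

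Whether the numbers pair the libraries was read from the deviations of each library from its group mean in log2 CPM. Over the 17398 genes the deviations of same-numbered libraries had a Pearson correlation of 0.07, 0.23, 0.14 and 0.38 for numbers 1 to 4, and the 12 other cKO and Loxp pairs ran from -0.24 to 0.07. Each of the 8 libraries correlated best with its own number. Number 1 did not reach the 0.1 required of each number, so the numbers are not taken as pairs of the design, and the blocked values stand as the comparison was defined. Genes are not independent replicates, and deviations within a group sum to 0, so these values only describe the libraries.

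Within the 72 activity genes the same correlations were -0.07, 0.01, 0.65 and 0.51 for numbers 1 to 4. The median SE of a log2 fold change was 0.117 for these genes with the block and 0.172 without it, and over all genes it was 0.116 and 0.137. The common biological coefficient of variation was 12.2% with the block and 15.3% without it, while the residual degrees of freedom fell from 6 to 3. The 4 differences were themselves unlike each other across genes, with correlations between -0.03 and 0.05 over the 17398 genes. Their SD over genes was 0.427, 0.512, 0.362 and 0.350 for numbers 1 to 4, and 5.72% of genes differed by more than 1 on the log2 scale under number 2, the largest share of the 4.

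**Figure D5:**
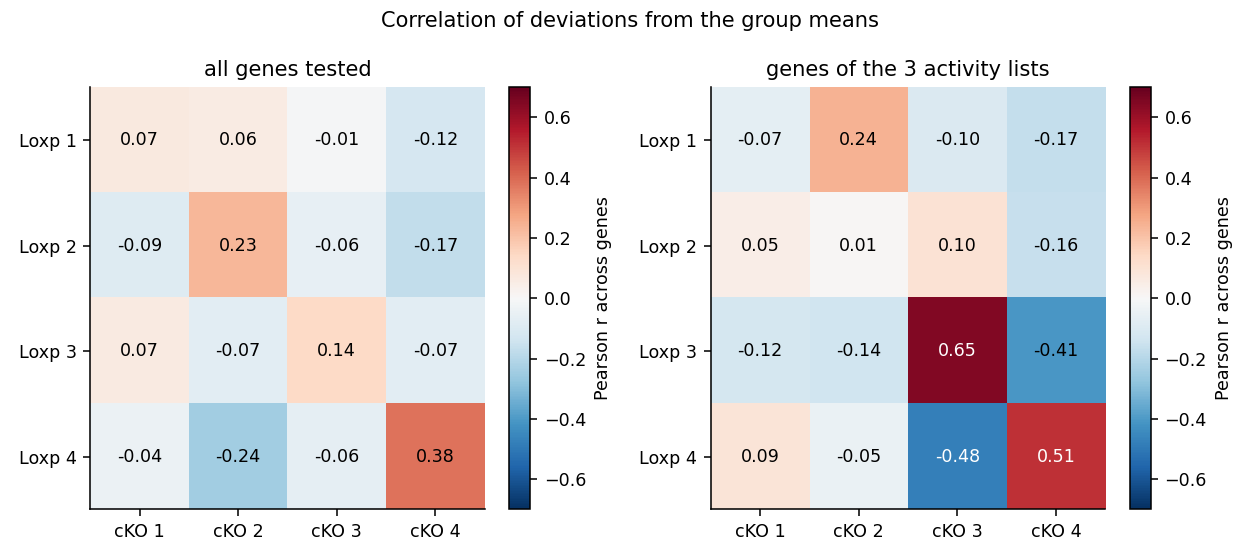
Pearson correlation across genes of the deviations of log2 CPM from the group mean for each Loxp library (rows) and cKO library (columns), over all 17398 genes tested (left) and over the 72 genes of the activity lists (right). On the left the diagonal of same-numbered libraries holds the highest value of each row and column (0.07 to 0.38), and on the right it does so for numbers 3 (0.65) and 4 (0.51).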

How the data were processed

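RNA of 8 libraries was compared. The read counts per gene are the authors' deposited values, for which the submitters' processing notes name featureCounts 1.5.0-p3 and the build mm10. FPKM were deposited by the authors beside the counts and served only for levels between genes. The aligner, annotation and strand setting: not given in the sources used here. From the counts, edgeR 4.0.16 in R 4.3.3 (TMM factors, filterByExpr defaults, glmQLFit and glmQLFTest) fitted group and replicate number to the 8 libraries, and Benjamini-Hochberg adjusted p-values over all 17398 genes had to be under 0.05. Every adjusted p in the text is from this fit unless another is named. SE was taken as the log2 fold change over the root of F. Number-matched differences used log2 CPM with a prior count of 2. The script was tested on simulated data.

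The members and lists were chosen with earlier results of these data known. Named are Rxra and Neurod6, called genes, the 12 higher and 12 lower genes with the same sign under each number, a mean log2 CPM over 2 and the smallest p, and up to 3 members of each list. Keeping only list members with an unadjusted p under 0.05 was chosen after values were seen, as were the other members named in the text. Models with number or clone names only were counted and not named. Coordinates are from GENCODE M21 (GRCm38), where 52403 of 52636 gene IDs were found (not Ccl27a). Promoters are from RefSeq. The pairing check is with the report. The alternatives were no block, all 10 libraries, other scaling, filters, DESeq2 1.42.0, limma-voom (limma 3.58.1), Xist as covariate, and each number left out with both of its libraries. Some items are not reported here.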

Additional observations from a re-analysis of the deposited data

Results flagged for a closer look

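In 96 groups of 4 libraries, 1 group for each named gene and genotype, 5 held a library far from the other 3; chance gives about 1 in 20 groups. Egr3 was at 208 CPM in Loxp 2 and at 283 to 289.6 in the other Loxp libraries. mt-Atp8, a weakly counted mitochondrial gene, was at 2.001 CPM in Loxp 1 and at 0.812 to 0.882 in the others. Epha6 was at 7.17 CPM in cKO 4 and at 12.1 to 12.8 in the others. Gabrb1, a GABA-A receptor subunit, was at 86.1 CPM in cKO 4 and at 102.2 to 103.3 in the others. Gjb1, the connexin of myelinating cells, was at 3.14 CPM in cKO 2 and at 8.12 to 9.01 in the others.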

How the results depend on the processing

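The count of called genes depended on the setting, and the cause was not tested. It was 1 (0 higher, 1 lower) with the block. Without the replicate block it was 0 (0 lower), and the number of genes at an unadjusted p under 0.05 went from 575 to 345. It was 100 (53 higher, 47 lower) with no low-count filter, where 31507 genes were tested, 16 (2 higher, 14 lower) with DESeq2 and the block, and 2 (1 higher) with Xist as a covariate. The 100 included Xist (-2.68), the Y-linked genes Eif2s3y (3.73), Ddx3y (3.21), Kdm5d (2.87) and Uty (2.40), and Gapdh (-1.55). They thus take in the unequal presence of Xist in the libraries of the groups. The fit with no filter gave Xist an SE of 0.193, although its differences under numbers 1 to 4 were 0.49, -7.53, 10.7 and -10.8. For mt-Nd4l the SE was 0.132 in that fit and 0.426 with the filter. The small p-values of the fit with no filter thus do not measure the spread between libraries. Leaving out a number gave 0 to 15 called genes, 0 to 2 higher and 0 to 13 lower. The 14 lower genes of DESeq2 included Arc, Neurod6, Klf10, Dusp5, Egr2, Arl4d, Ier2, Fos, Egr1, Egr3, Dusp6 and Nr4a1. All 10 libraries, other scaling, a minimum of 1 CPM in 4 libraries and limma-voom each called 1 gene, Arc.

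With no low-count filter, where 31507 genes were tested, 1663 genes were lower under each number, against 1046 of the 17398 tested with the filter. With a number left out, only 3 differences had to have the same sign. The count of genes with the same sign was then 3983 to 4710 in all, 1923 to 2147 higher and 2060 to 2563 lower. For none of the 48 named genes did the direction reverse in any of the 13 alternatives; 12 moved by over 1.5 times without a number. List medians of the activity genes without the replicate block were -0.35, -0.18 and -0.26 for transcription factors, effectors and feedback regulators, and -0.45 to -0.25, -0.20 to -0.16 and -0.33 to -0.16 with a number left out. With 4 libraries a group and 3 residual degrees of freedom, a gene that missed the threshold is not shown to be unchanged.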
